A study of Homo sapiens with 6 samples.

Results

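snoRNA and microRNA host genes are long RNAs whose transcripts carry, mostly inside introns, the sequence of 1 or more small RNAs. They were taken from the count table by name: GAS5 and the genes named SNHG with a number (small nucleolar RNA host genes), and the genes named MIR...HG (microRNA host genes). This gave 77 genes of 21776 in the table, 28 snoRNA hosts and 49 microRNA hosts. The question was how each of these classes differed between hypoxia and normoxia. RNA sequencing was done on an HNSCC cell line labelled SCC25, an established wild-type line of oral squamous cell carcinoma, with 3 libraries per condition. Hypoxia was 1% O2 in a tri-gas incubator for 12 h, and normoxia was an incubator with air and CO2. The groups share the line and medium, the labels do not say whether the libraries came from separate cultures, and the study's text also names SCC9 for this experiment. The values are those of the host transcripts; the mature microRNAs and the snoRNAs were not analysed here.

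Reads assigned to genes totalled 30186813, 36076088 and 32272716 for the hypoxia libraries and 37278703, 29637189 and 29981208 for the normoxia libraries, in the order of their replicate numbers. At this depth, 3 counts or fewer in a library were not read as a measurable level. Genes with at least 1 count numbered 18841, 18996 and 18766 under hypoxia and 17505, 17128 and 17378 under normoxia. So each hypoxia library held more detected genes than each normoxia library. Genes known to respond to low oxygen differed as labelled: CA9, a carbonic anhydrase of the cell surface, was at 277 ± 15.4 CPM (counts relative to library size after TMM; SD, n = 3) under hypoxia and 42.4 ± 22.0 under normoxia. Within normoxia, replicate 3 stood higher in some of these genes, with CA9 at 67.7 CPM against 32.2 and 27.3 in replicates 1 and 2, NDRG1, a stress-response gene, at 409 CPM against 163 and 140, and EGLN3, a prolyl hydroxylase of HIF, at 10.7 CPM against 5.86 and 3.74. VEGFA, the angiogenic factor, was at 205 CPM against 180 and 168, and ADM (adrenomedullin) was not higher there, at 16.8 CPM against 17.9 and 17.9. Counts without each library are therefore given in the closing section.

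The squamous label was checked on 8 epithelial markers, which summed to 1071, 1039 and 1057 CPM under hypoxia and 892, 903 and 954 CPM under normoxia. CDH1 (E-cadherin) was the most abundant of them under hypoxia (479 ± 4.85 CPM, SD, n = 3), against 188 ± 10.9 CPM under normoxia. EPCAM, an epithelial adhesion molecule, was the most abundant under normoxia (317 ± 3.37 CPM), against 249 ± 7.36 CPM under hypoxia. The other members also went both ways. KRT17 and DSG3 were higher under hypoxia, SFN and KRT5 were lower, and TP63 overlapped between conditions. KRT14, a basal keratin, was at or near 0 in every library. The 5 fibroblast markers summed to 22.0, 18.7 and 17.1 CPM under hypoxia and 4.03, 3.15 and 5.64 CPM under normoxia, nearly all of it COL1A1, with DCN at or near 0 and LUM at 0.458 and 0.0431 CPM. The leukocyte sum (27.3 to 34.2 CPM) was carried by CD68, with PTPRC and CD3E at or near 0. The endothelial sum was low, at 1.54, 1.24 and 1.48 CPM under hypoxia and 0.296, 0.315 and 0.744 CPM under normoxia, without overlap. The part of these cell types in the results was not tested.

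Most snoRNAs of vertebrates are cut from introns of host transcripts, bound by core proteins and guide the modification of ribosomal RNA. Box C/D snoRNAs direct 2'-O-methylation and box H/ACA snoRNAs direct pseudouridylation. The spliced exons of many snoRNA hosts have little coding potential, and several, GAS5 among them, are known as short-lived RNAs removed by nonsense-mediated decay while they are translated. Many begin with a run of pyrimidines, as the messenger RNAs of ribosomal proteins do. microRNA hosts are processed differently: DROSHA and DGCR8 cut the hairpin out of the primary transcript, DICER1 trims it, and an Argonaute protein holds the mature strand, whose seed (bases 2 to 8) pairs with target messenger RNAs.

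For the microRNA hosts described here, 38 of the 49 had a match within their span among the microRNA entries used (GRCh38.p14). The others, MIR22HG among them, had no match there, which does not show that they carry no microRNA. Mature strands of 6 hosts that rose and 3 that fell, picked with their values in view, are shown because the seed defines which family a host supplies. Each is printed 5' to 3' with the seed in capitals. Strands from hosts that rose come first.
hsa-miR-210-3p (MIR210HG): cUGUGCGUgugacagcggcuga
hsa-miR-193b-3p (MIR193BHG): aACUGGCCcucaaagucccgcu
hsa-miR-365a-3p (MIR193BHG): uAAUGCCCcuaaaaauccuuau
hsa-let-7a-5p (MIRLET7A1HG): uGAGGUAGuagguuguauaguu
hsa-let-7f-5p (MIRLET7A1HG): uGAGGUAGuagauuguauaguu
hsa-let-7d-5p (MIRLET7A1HG): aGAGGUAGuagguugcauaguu
hsa-miR-34a-5p (MIR34AHG): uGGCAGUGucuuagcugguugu
hsa-miR-200c-3p (MIR200CHG): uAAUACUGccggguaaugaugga
hsa-miR-141-3p (MIR200CHG): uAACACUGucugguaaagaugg
hsa-miR-205-5p (MIR205HG): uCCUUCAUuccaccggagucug
Strands from 3 of the 5 hosts that fell follow.
hsa-miR-17-5p (MIR17HG): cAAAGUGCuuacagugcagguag
hsa-miR-20a-5p (MIR17HG): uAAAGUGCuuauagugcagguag
hsa-miR-19a-3p (MIR17HG): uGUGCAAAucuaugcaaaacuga
hsa-miR-19b-3p (MIR17HG): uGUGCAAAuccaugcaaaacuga
hsa-miR-221-3p (MIR222HG): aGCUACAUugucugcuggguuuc
hsa-miR-222-3p (MIR222HG): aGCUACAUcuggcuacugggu
hsa-miR-146a-5p (MIR3142HG): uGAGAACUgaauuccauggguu
The let-7 strands share the seed GAGGUAG, miR-17-5p and miR-20a-5p share AAAGUGC, miR-19a-3p and miR-19b-3p share GUGCAAA, and miR-221-3p and miR-222-3p share GCUACAU. The seeds of miR-200c-3p and miR-141-3p, which lie in 1 host, are not identical. Among the hosts tested, the let-7 seed is carried by MIRLET7A1HG and MIRLET7BHG, which were higher under hypoxia, and by MIR100HG, which did not pass the test (log2-fold change 0.24, adjusted p = 0.148).

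The snoRNA hosts were mostly lower under hypoxia and the microRNA hosts mostly higher. Counts were compared by edgeR's quasi-likelihood test over the 14255 genes with enough reads, and p-values were adjusted by Benjamini and Hochberg, with a threshold of 0.05. Among those genes, 39.2% were higher and 38.5% lower under hypoxia, and the median log2-fold change (hypoxia over normoxia) was 0.023. Of 26 snoRNA hosts tested, 6 were higher (23.1%), 14 lower (53.8%) and 6 did not pass the threshold, with a median log2-fold change of -0.55. Of 30 microRNA hosts tested, 17 were higher (56.7%), 5 lower (16.7%) and 8 did not pass, with a median of 0.78. No test of one class against the other was made. A member that passed the filter through its higher condition alone had to differ, so these counts are descriptions.

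The microRNA hosts lay close to the other non-coding genes of the table, of which 1644 were tested. Of these, 56.3% were higher and 9.55% lower, and their median log2-fold change was 0.96. The snoRNA hosts lay on the other side, with a majority of their tested members lower. An additional threshold of 1 on the log2-fold change was passed by 30.4% of all genes tested, by 8 of the 26 snoRNA hosts (1 higher and 7 lower) and by 13 of the 30 microRNA hosts (11 higher and 2 lower). The libraries of the 2 conditions did not overlap in CPM for 80.5% of all genes tested, for 20 of the 26 snoRNA hosts and for 21 of the 30 microRNA hosts. The snoRNA hosts without overlap were the 20 that passed the test, and MIR3936HG was the 1 called microRNA host whose libraries overlapped.

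**Figure D1:**
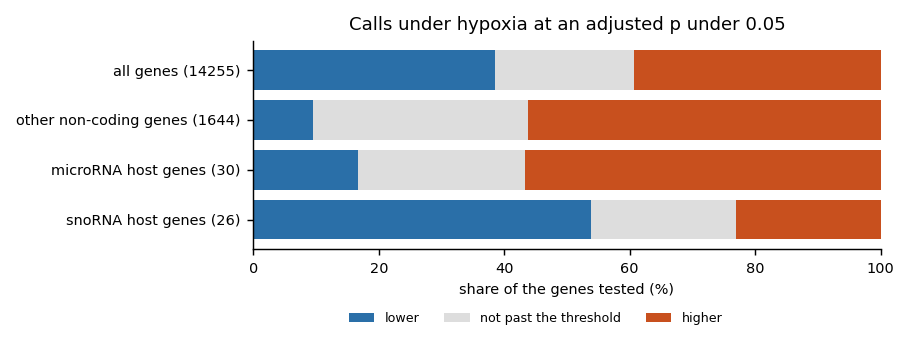
Share of the genes tested (horizontal axis, percent) that were lower, not past the threshold, or higher under hypoxia at an adjusted p under 0.05, in 4 sets of genes with the number tested in brackets. The bar of the microRNA hosts resembles that of the other non-coding genes (56.7% and 56.3% higher), whereas 53.8% of the snoRNA hosts were lower.

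**Figure D2:**
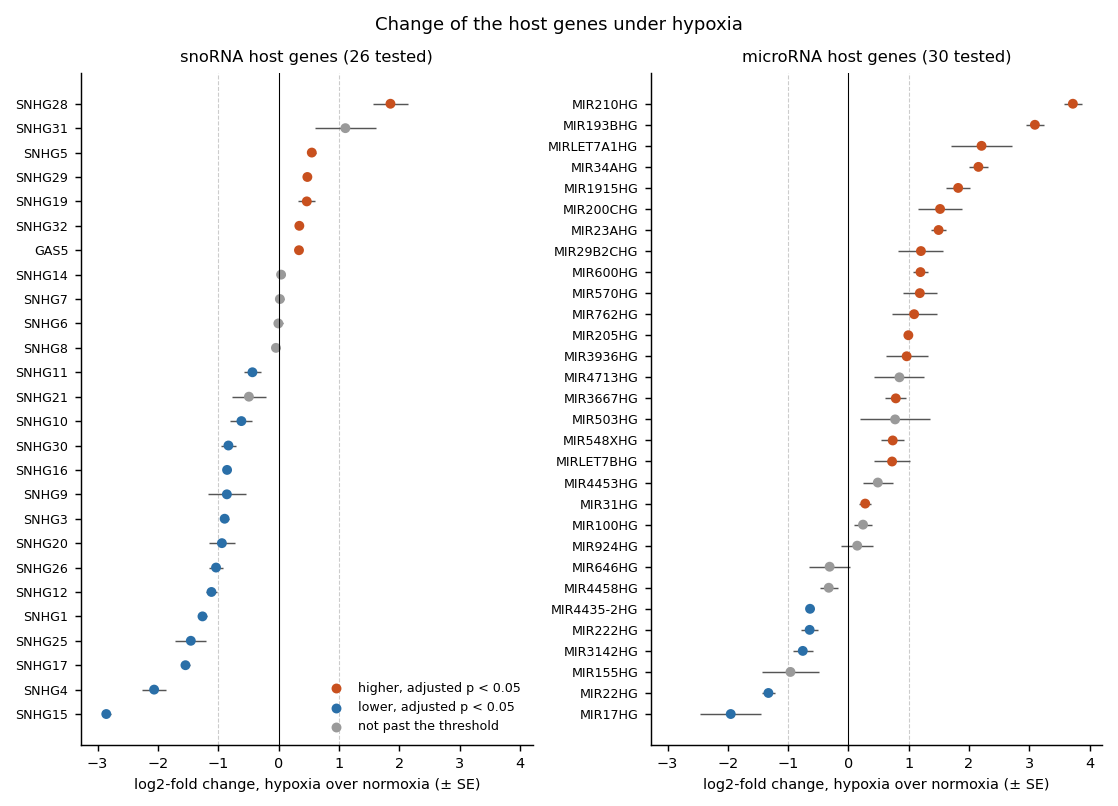
log2-fold change (hypoxia over normoxia) of each tested host gene with its standard error (SE), snoRNA hosts on the left and microRNA hosts on the right, coloured by the call at an adjusted p under 0.05; dashed lines mark a log2-fold change of 1 in either direction. The snoRNA hosts run from SNHG15 (-2.86) to SNHG28 (1.85) and the microRNA hosts from MIR17HG (-1.95) to MIR210HG (3.72).

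Levels per length were compared as FPKM (fragments per kilobase of gene, scaled to the library total, as deposited). The snoRNA hosts tested had a median of 16.5 FPKM over all libraries, from 0.172 to 172, and 5 of them exceeded 100 FPKM. The microRNA hosts had a median of 1.23 FPKM, from 0.203 to 89.5, and 13 of the 30 lay under 1 FPKM. The summed level of the snoRNA hosts was 1136, 1053 and 1134 FPKM under hypoxia and 1105, 1093 and 1065 FPKM under normoxia, so the sums overlapped although most tested hosts were lower. SNHG29, SNHG5, SNHG32 and GAS5 made up 56.6% of that sum, and each of them rose. The summed level of the microRNA hosts was 220, 206 and 202 FPKM under hypoxia and 107, 99.5 and 118 FPKM under normoxia, with no overlap and a ratio of 1.93. MIR205HG alone made up 56.3% of it.

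The 4 snoRNA hosts of highest mean FPKM over all libraries rose under hypoxia, by log2-fold changes of 0.34 to 0.55. SNHG29, which carries the box C/D snoRNAs SNORD49A, SNORD49B and SNORD65, was at 206, 195 and 208 FPKM under hypoxia and 143, 138 and 142 FPKM under normoxia. Every hypoxia library lay above every normoxia library, and the log2-fold change was 0.48 (SE, the standard error, 0.051; adjusted p = 1.49e-07 in edgeR). SNHG5, host of SNORD50A and SNORD50B, was at 203, 180 and 196 FPKM under hypoxia and 131, 130 and 122 FPKM under normoxia. The groups were again apart, with a log2-fold change of 0.55 (SE 0.062, adjusted p = 3.18e-07). SNHG32, host of SNORD48 and SNORD52, was at 182, 170 and 176 FPKM under hypoxia and 134, 129 and 140 FPKM under normoxia. Its log2-fold change was 0.34 (adjusted p = 1.77e-05), without overlap.

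GAS5, named for its accumulation in growth-arrested cells, carries 11 snoRNAs in the RefSeq table, 10 of box C/D and 1 of box H/ACA. It was at 157, 143 and 155 FPKM under hypoxia and 120, 111 and 117 FPKM under normoxia. The lowest hypoxia library lay above the highest normoxia library, and the log2-fold change was 0.34 (SE 0.057, adjusted p = 3.53e-05). SNHG19, host of SNORD60, was at 31.5, 27.8 and 37.1 FPKM under hypoxia and 19.7, 22.4 and 25.5 FPKM under normoxia. The groups did not overlap, and the log2-fold change was 0.47 (adjusted p = 0.00526), but without hypoxia replicate 3 it was 0.34 and missed the threshold (adjusted p = 0.0541).

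SNHG6 and SNHG8, 5th and 6th in the class by mean FPKM over all libraries, gave no call. SNHG6, host of SNORD87, was at 124, 119 and 140 FPKM under hypoxia and 121, 133 and 118 FPKM under normoxia. SNHG8, host of SNORA24, was at 69.7, 67.5 and 64.8 FPKM under hypoxia and 64.7, 66.8 and 70.2 FPKM under normoxia. Their groups overlapped, with log2-fold changes of -0.0039 (SE 0.072, adjusted p = 0.962) and -0.044 (SE 0.064, adjusted p = 0.537), and neither sign held in all alternatives. SNHG7 (log2-fold change 0.021, adjusted p = 0.802) and SNHG14 (0.041, adjusted p = 0.587), of lower level, gave no call either, and their signs also turned in some alternatives. By the mean level the order under hypoxia was SNHG29, SNHG5, SNHG32, GAS5, SNHG6 and SNHG8, and under normoxia SNHG29, SNHG32, SNHG5, SNHG6 and GAS5, followed by SNHG15 (67.8 FPKM) and SNHG8 (67.2 FPKM). SNHG5 and SNHG32 overlapped in both conditions, whereas SNHG8 lay under SNHG6 in every library.

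**Figure D3:**
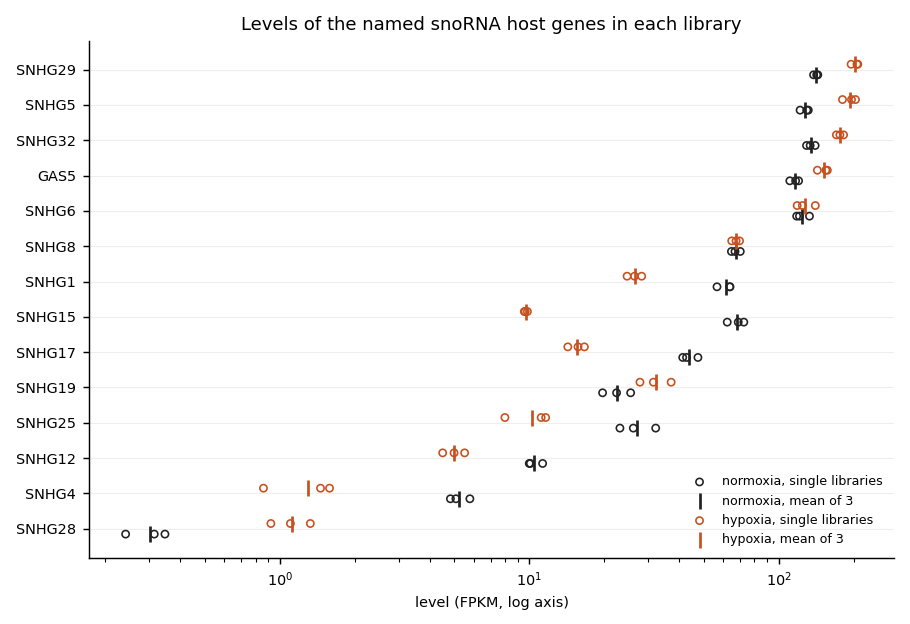
FPKM of the 14 named snoRNA host genes (horizontal log axis) in each library, open circles for single libraries and vertical ticks for the mean of 3, normoxia in black and hypoxia in orange. SNHG29, SNHG5, SNHG32 and GAS5 lie to the right under hypoxia by a small step, while SNHG15 moves from 67.8 to 9.68 FPKM.

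SNHG15 and SNHG1, which stand 8th and 7th in the class by mean FPKM over all libraries, were both lower under hypoxia. SNHG15, host of the box H/ACA snoRNA SNORA9, was at 9.64, 9.56 and 9.83 FPKM under hypoxia and 72.5, 68.9 and 62.2 FPKM under normoxia. Its level under hypoxia was 0.138 of that under normoxia, with a log2-fold change of -2.86 (SE 0.078, adjusted p = 9.32e-15), the largest decrease among the snoRNA hosts tested. SNHG1, which carries 8 box C/D snoRNAs, was at 28.2, 26.4 and 24.7 FPKM under hypoxia and 63.8, 63.6 and 56.6 FPKM under normoxia. All 3 hypoxia libraries lay under all 3 normoxia libraries, with a log2-fold change of -1.26 (SE 0.068, adjusted p = 1.92e-11). Under normoxia the levels of SNHG15 overlapped those of SNHG8 and SNHG1, and under hypoxia the 3 hosts were apart, with SNHG8 highest and SNHG15 lowest.

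SNHG17, host of 4 snoRNAs of the SNORA71 family, was at 16.6, 14.3 and 15.7 FPKM under hypoxia and 42.7, 47.5 and 41.2 FPKM under normoxia. The groups were far apart (log2-fold change -1.54, SE 0.079, adjusted p = 1.13e-11). SNHG12, which carries SNORD99, SNORA61, SNORA44 and SNORA16A, was at 5.00, 5.51 and 4.50 FPKM under hypoxia and 11.3, 10.0 and 10.1 FPKM under normoxia. Its log2-fold change was -1.11 (adjusted p = 1.17e-08), without overlap. SNHG4, host of SNORA74A and SNORA74D, was at 1.46, 0.861 and 1.58 FPKM under hypoxia and 5.08, 5.78 and 4.83 FPKM under normoxia. It fell by 2.06 on the log2 scale (SE 0.20, adjusted p = 5.19e-08).

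SNHG25, a host of 111 bases by the length used for its FPKM, carries SNORD104. It had 39, 32 and 40 counts under hypoxia and 133, 76 and 87 counts under normoxia. The counts were low but did not overlap, with a log2-fold change of -1.46 (SE 0.26, adjusted p = 6.26e-05). The other 8 hosts that fell (SNHG26, SNHG20, SNHG3, SNHG9, SNHG16, SNHG30, SNHG10 and SNHG11) had log2-fold changes from -1.04 to -0.43. SNHG16, host of SNORD1A, SNORD1B and SNORD1C, was at 26.1, 24.2 and 24.3 FPKM under hypoxia and 45.0, 44.8 and 40.7 FPKM under normoxia (log2-fold change -0.85, adjusted p = 6.78e-10). SNHG3, host of SNORA73A and SNORA73B, was at 16.6, 14.9 and 14.7 FPKM under hypoxia and 28.3, 28.6 and 26.0 FPKM under normoxia. In both, the conditions were apart by more than the spread within either. SNHG9 (log2-fold change -0.86, adjusted p = 0.0216) missed the threshold without hypoxia replicate 1 and without normoxia replicate 2, with an adjusted p of at most 0.146. The largest increase among the snoRNA hosts tested was SNHG28, at 65, 93 and 100 counts under hypoxia and 21, 24 and 22 counts under normoxia. It rose by a log2-fold change of 1.85 (SE 0.29, adjusted p = 1.78e-05) from a low level of 0.301 ± 0.054 FPKM (SD, n = 3).

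The tested hosts were also grouped by the kind of snoRNA that lies within their span in the RefSeq table. The strand was not used in this match, so a snoRNA within the span need not come from the host transcript. Hosts of box C/D snoRNAs alone numbered 11 among those tested, 4 higher, 5 lower and 2 not past the threshold, with a median log2-fold change of -0.0039. Hosts of box H/ACA snoRNAs alone numbered 9, with 0 higher, 6 lower and 3 not past the threshold, and a median of -0.86. Of all genes tested 39.2% were higher and 38.5% lower, and the counts of the box C/D group lie near these shares. In the group with box H/ACA snoRNAs alone, SNHG31 was the 1 host higher in edgeR at an unadjusted p under 0.05. In DESeq2, 0 of these 9 were higher. limma on log2(FPKM + 1) gave 0 of the 8 hosts it tested, which did not include SNHG31 because its level was under the minimum. GAS5 (higher) and SNHG12 (lower) carry both kinds. The other 4 (SNHG10, SNHG20, SNHG21 and SNHG28) matched none by name. The groups are small and the difference between them was not tested.

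Among the microRNA hosts, MIR210HG rose most. It carries miR-210, the microRNA best known for induction by hypoxia through HIF. It was at 23.1, 22.0 and 22.1 FPKM under hypoxia and 1.71, 0.982 and 2.23 FPKM under normoxia. The hypoxia libraries lay close together and far above the normoxia libraries, a 13.2-fold difference (log2-fold change 3.72, SE 0.15, adjusted p = 6.3e-13 in edgeR). MIR193BHG, host of miR-193b and miR-365a, had 575, 818 and 759 counts under hypoxia and 85, 59 and 95 counts under normoxia. Its groups were equally distinct (log2-fold change 3.09, SE 0.15, adjusted p = 5.15e-12).

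MIR205HG, host of miR-205, a microRNA of squamous and basal epithelium, was the most abundant microRNA host. It was at 130, 116 and 116 FPKM under hypoxia and 56.5, 56.3 and 63.0 FPKM under normoxia. Every hypoxia library lay above every normoxia library, with a log2-fold change of 0.99 (SE 0.065, adjusted p = 2.2e-10). MIR34AHG, host of miR-34a, a target of p53, was at 3.23, 4.84 and 4.46 FPKM under hypoxia and 1.11, 0.763 and 0.834 FPKM under normoxia. The groups did not overlap, and the log2-fold change was 2.15 (SE 0.16, adjusted p = 1.44e-09). MIR200CHG, host of miR-200c and miR-141, which repress the ZEB transcription factors, was at 6.61, 7.27 and 4.68 FPKM under hypoxia and 1.38, 1.35 and 3.61 FPKM under normoxia. Normoxia replicate 3 came near the lowest hypoxia library. The log2-fold change was 1.52 (SE 0.36, adjusted p = 0.0011), and 2.11 without that library.

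MIRLET7A1HG, host of let-7a, let-7f and let-7d, had few reads, with 41, 42 and 19 counts under hypoxia and 11, 2 and 8 counts under normoxia. Its log2-fold change of 2.21 carried a large error (SE 0.50, adjusted p = 0.000663). MIR1915HG was at 1.89, 1.84 and 1.31 FPKM under hypoxia and 0.417, 0.409 and 0.562 FPKM under normoxia, without overlap (log2-fold change 1.82, adjusted p = 2.88e-07). MIR548XHG, among the more abundant microRNA hosts, was at 7.71, 7.20 and 8.05 FPKM under hypoxia and 4.13, 3.47 and 5.79 FPKM under normoxia. It rose by a log2-fold change of 0.73 (adjusted p = 0.00246), with the highest normoxia library still under the lowest hypoxia library.

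The other 9 hosts that were higher had log2-fold changes from 0.28 to 1.49. MIR23AHG, host of miR-23a, miR-27a and miR-24, was at 2.65, 2.28 and 2.16 FPKM under hypoxia and 0.868, 0.634 and 0.929 FPKM under normoxia (log2-fold change 1.49, adjusted p = 9.2e-09). MIR29B2CHG, host of miR-29b and miR-29c, rose 2.30-fold (adjusted p = 0.00745). MIR600HG was at 2.34, 2.34 and 2.36 FPKM under hypoxia and 1.04, 0.784 and 1.15 FPKM under normoxia, and overlaps STRBP on the same strand, which fell by 0.42 on the log2 scale. MIR31HG, host of miR-31, was at 9.59, 10.2 and 9.43 FPKM under hypoxia and 8.15, 6.33 and 8.84 FPKM under normoxia. Its log2-fold change of 0.28 (adjusted p = 0.0207) missed the threshold without hypoxia replicate 2 (0.25, adjusted p = 0.0737) and without normoxia replicate 2 (0.16, adjusted p = 0.151). The calls of MIR3936HG, MIRLET7BHG and MIR762HG were also lost when single libraries were left out, with adjusted p-values up to 0.0961, 0.148 and 0.0759. The libraries whose removal ended these calls are named in the closing section.

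**Figure D4:**
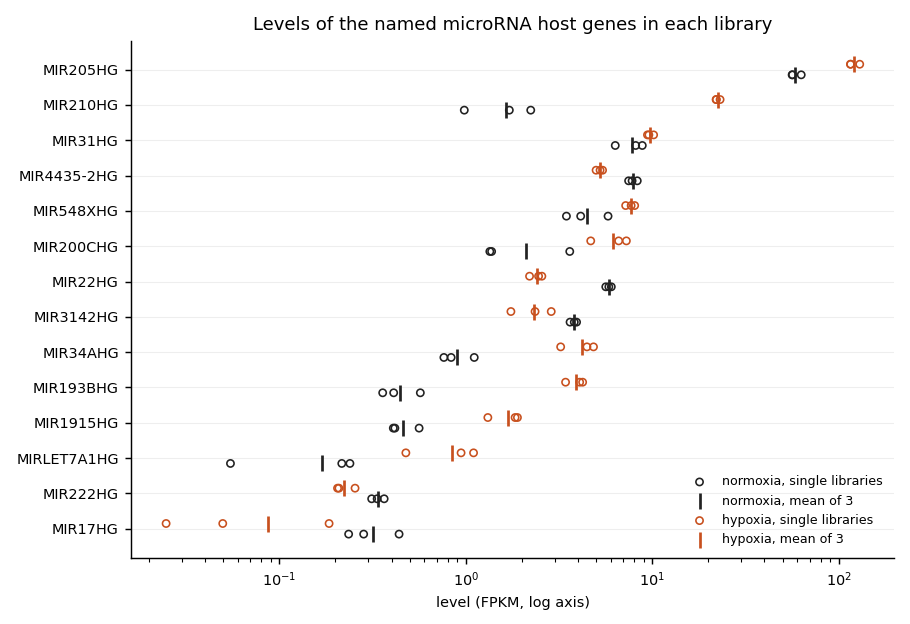
FPKM of the 14 named microRNA host genes (horizontal log axis) in each library, open circles for single libraries and vertical ticks for the mean of 3, normoxia in black and hypoxia in orange. MIR205HG is the most abundant in both conditions, and MIR210HG moves from 1.64 to 22.4 FPKM.

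The 5 microRNA hosts that fell began with MIR17HG, host of the miR-17-92 cluster, which MYC is known to activate. It had 28, 9 and 4 counts under hypoxia and 53, 35 and 66 counts under normoxia. The counts were low and hypoxia replicate 1 came near the lowest normoxia library, with a log2-fold change of -1.95 (SE 0.50, adjusted p = 0.00199). Without hypoxia replicate 1 it was -3.11. MIR22HG was at 2.46, 2.20 and 2.56 FPKM under hypoxia and 5.85, 5.63 and 6.03 FPKM under normoxia. It fell by 1.33 on the log2 scale (SE 0.11, adjusted p = 5.77e-09), with tight groups.

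MIR3142HG, which also carries miR-146a, an NF-kB target, was at 2.87, 1.75 and 2.35 FPKM under hypoxia and 3.82, 3.62 and 3.93 FPKM under normoxia. Its log2-fold change was -0.76 (adjusted p = 0.000388). MIR222HG, host of miR-221 and miR-222, which repress the cell cycle inhibitor CDKN1B, had 157, 229 and 165 counts under hypoxia and 339, 231 and 250 counts under normoxia. Scaled to the library, the groups did not overlap, and the log2-fold change was -0.64 (SE 0.14, adjusted p = 0.000333). MIR4435-2HG was at 5.42, 5.25 and 5.00 FPKM under hypoxia and 7.80, 8.31 and 7.47 FPKM under normoxia, with a log2-fold change of -0.64 (adjusted p = 2.26e-07); it has a near-identical copy, CYTOR, with which it may share reads. Among tested members, the lengths used for FPKM equalled the whole RefSeq gene span for MIR23AHG (8403 bases), MIR600HG (5984), MIR4453HG (3000) and SNHG10 (1961). This bears on their levels per length. Whether reads of introns or of overlapping genes entered their counts, and so their fold changes, was not tested.

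The filter left out 19 microRNA hosts and 2 snoRNA hosts, SNHG22 and SNHG27, whose single libraries held at most 16 counts. SNHG22 had 13, 10 and 8 counts under hypoxia and 1, 2 and 0 counts under normoxia. The ratio of its summed counts, scaled to the library sizes after TMM, was 9.84, with a 95% exact interval of 3.07 to 50.3 that covers counting error only. MIR2052HG had 20 counts under hypoxia and 5 under normoxia (ratio 3.81, interval 1.39 to 13.0), but its libraries overlapped in CPM. MIR9-1HG, MIR137HG, MIR194-2HG, MIR202HG, MIR302CHG and MIR3681HG had 1 to 4 counts summed over the hypoxia libraries and 0 under normoxia, and MIR3150BHG had 2 under normoxia and 0 under hypoxia, which is too few for a comparison. The remaining 11 microRNA hosts and SNHG27 had reads in both conditions. Of these, MIR9-3HG had 11, 7 and 6 counts under hypoxia and 4, 0 and 0 counts under normoxia, without overlap in CPM.

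Promoter windows of 300 bases (250 before to 50 after the RefSeq start) were held for 63 of the 77 members, 48 of them tested. They were searched on both strands for ACGTG or GCGTG, the core letters of the hypoxia response element to which HIF binds. The letters occur in 48.4% of all 27305 windows and in 62.5% of the 11412 windows of tested genes. Among the microRNA hosts tested they occur in 12 of 26 windows, 6 of 14 for hosts that rose. Among the snoRNA hosts tested they occur in 17 of 22, 10 of 11 for hosts that fell, 5 of 5 for hosts without a call and 2 of 6 for hosts that rose. The letters are common, so their presence is a description of the window and no sign of binding. The window of MIR210HG, the host with the largest increase, is printed with its 2 matches in capitals; it lies at chr11:568408-568707 of GRCh38.p14 on the minus strand.
MIR210HG promoter window: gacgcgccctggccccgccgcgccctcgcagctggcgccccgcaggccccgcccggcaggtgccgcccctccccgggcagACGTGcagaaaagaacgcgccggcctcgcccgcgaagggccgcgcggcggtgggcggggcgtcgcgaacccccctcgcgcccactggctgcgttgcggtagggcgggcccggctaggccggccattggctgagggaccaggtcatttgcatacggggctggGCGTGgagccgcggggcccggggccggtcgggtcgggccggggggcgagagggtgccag

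The same windows were searched at the RefSeq start for a C followed by at least 4 pyrimidines (C or T), the form of a terminal oligopyrimidine start. It occurs in 5.29% of tested genes, in 5 of 22 snoRNA hosts and in 1 of 26 microRNA hosts. The snoRNA hosts with it were SNHG5, SNHG32 and SNHG19, which rose, and SNHG12 and SNHG4, which fell. The stretches from 10 bases before to 20 after the start are shown for 4 of these and for SNHG1, whose run is shorter, with the pyrimidine run in capitals. In GRCh38.p14 they lie at chr6:85678714-85678743 (minus strand), chr6:31834906-31834935 (plus), chr16:2155339-2155368 (minus), chr1:28581854-28581883 (minus) and chr11:62855866-62855895 (minus), in the order printed.
SNHG5: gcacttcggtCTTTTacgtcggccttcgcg
SNHG32: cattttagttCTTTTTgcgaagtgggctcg
SNHG19: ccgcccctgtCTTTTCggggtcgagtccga
SNHG12: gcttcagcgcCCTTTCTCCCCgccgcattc
SNHG1: gagattcgttCTCatttttctactgctcgt

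Several host genes share their locus with another gene, and the sources used here do not say whether the strand was used in counting. By the RefSeq table, 16 tested members overlap another tested gene and 10 have a start on the opposite strand within 2 kb. Where both genes of an overlapping pair passed the test, 8 pairs moved in the same direction and 6 in opposite directions. SNHG4 lies on the strand of MATR3, a nuclear matrix protein, which fell by 0.34 on the log2 scale (adjusted p = 8.67e-06). SNHG3 overlaps RCC1, the exchange factor of RAN, on the same strand, and both fell, with log2-fold changes of -0.89 and -1.16. SNHG12 overlaps TRNAU1AP on the opposite strand, which rose by 0.25 (adjusted p = 0.0111) while SNHG12 fell.

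Among the hosts that rose, MIR34AHG and its antisense neighbour LNCTAM34A both rose (2.15 and 1.55), and SNHG28 and LOC107985216 on the opposite strand both rose (1.85 and 3.71). Reads of these pairs cannot be told apart where the strand was not used. SNHG29 overlaps LRRC75A, which rose by 1.92 (adjusted p = 1.16e-10) at 18.3 CPM under hypoxia. MIR31HG overlaps IFNE, an epithelial interferon, on the same strand, which rose by 2.69 (adjusted p = 8.57e-06). Of the 10 pairs with starts close by on opposite strands, both genes passed the test in 7, and 6 of these moved together. The pairs of GAS5 with ZBTB37, MIR34AHG with LNCTAM34A and SNHG28 with LOC107985216, which moved together, also overlap. So does MIR3936HG with SLC22A5, which moved in opposite directions. These pairs were therefore counted among the overlapping pairs too. The share over all neighbouring gene pairs was not computed for either kind of pair. MIR22HG and WDR81, whose starts lie 313 bases apart, both fell (-1.33 and -0.63). GAS5 and ZBTB37, which overlap and have starts 665 bases apart, both rose (0.34 and 0.57).

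Genes that work with the small RNAs were described from lists, and each count stands against 39.2% higher and 38.5% lower among all genes tested. The core snoRNP proteins and their assembly factors were lower in 20 of 22 cases and higher in 0, with a median log2-fold change of -1.31. The count of higher genes was also 0 at an unadjusted p under 0.05 in edgeR, DESeq2 and limma. NOP56 (-2.51) and NOP58 (-1.74), partners in the box C/D particle, fell, as did its methyltransferase FBL (-0.47). Of the box H/ACA particle, the pseudouridine synthase DKC1 (-2.17) and GAR1 (-1.54) fell, as did NHP2 (-0.72) and NOP10 (-0.70). NOLC1, a chaperone of snoRNPs, fell by 1.98, while PIH1D1 (-0.13) and ZNHIT3 (0.05) did not pass the test.

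Protein-coding genes known to carry snoRNAs were split. Of 41 tested, 24 were higher and 14 lower, with a median of 0.21. Among those that rose were the ribosomal protein gene RPL13A (0.60), the translation elongation factor EEF2 (0.67) and TPT1 (0.69). Among those that fell were NOP56, WDR43 (-2.33), DKC1 and NCL (nucleolin, -1.49). NOP56 and DKC1 stand in both lists. EEF1B2, a translation factor, fell by 0.33, PPAN, a nucleolar protein gene, rose by 0.46, and RPL30 and RPL17 did not pass the test.

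Of 12 nonsense-mediated decay factors, 3 were higher and 8 lower, with a median of -0.27. The helicase UPF1 fell by 0.42 and DHX34 by 1.02, whereas the kinase SMG1 and the endonuclease SMG6 each rose by 0.51. Of 13 microRNA processing and effector genes, 10 were lower and 3 higher, with a median of -0.58. DROSHA (-0.97), DGCR8 (-0.72), the export factor XPO5 (-0.95), DICER1 (-0.69) and AGO2 (-0.58) fell, and AGO4 rose by 1.44. Of 25 protein-coding hosts of microRNAs tested, 8 were higher and 11 lower, near the shares over all genes, with a median of -0.11. MCM7, a replicative helicase subunit that carries the miR-106b cluster, fell by 1.11, and SREBF2, a regulator of cholesterol synthesis that carries miR-33a, rose by 0.98.

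**Figure D5:**
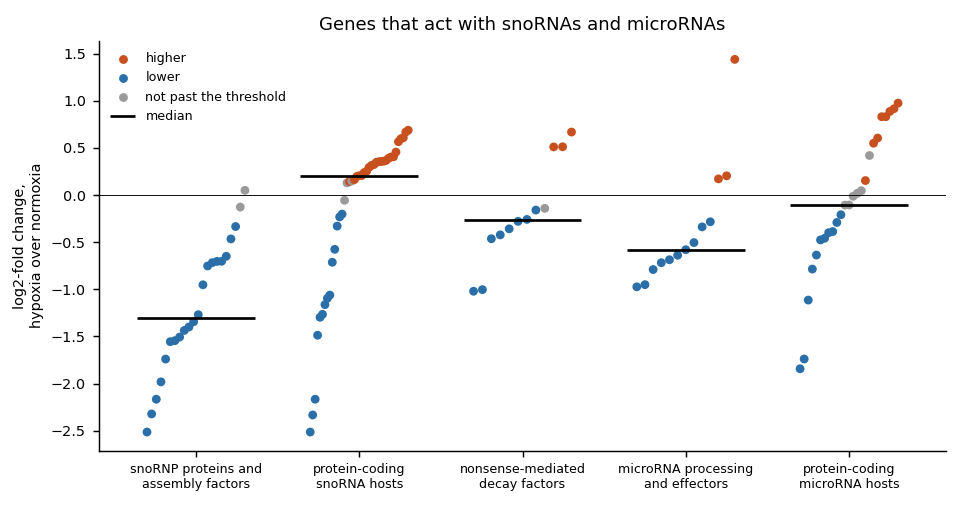
log2-fold change (hypoxia over normoxia, vertical axis) of each tested gene in 5 lists, sorted within the list and coloured by the call at an adjusted p under 0.05, with a bar at the median. The snoRNP list lies almost wholly under 0 (median -1.31), while the protein-coding snoRNA hosts run from -2.51 to 0.69 (median 0.21).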

How the data were processed

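The authors deposited counts, whole numbers of reads per gene without normalization, and FPKM of the same genes. For 21775 of 21776 genes the FPKM equalled the count divided by 1 gene length and the library's total (tolerance 0.001). The aligner, counter, annotation and use of strand are not given in the sources used here; the submitters' processing notes name the mouse builds GRCm38 and mm10, while symbols and Entrez numbers are human, so no coordinates come from the files. Counts were compared in R 4.3.3 by edgeR 4.0.16 (quasi-likelihood F test, TMM, filterByExpr, condition as the only term, Benjamini-Hochberg over all genes tested). A standard error is the log2-fold change divided by the square root of F. p-values measure the spread between these libraries, whose biological coefficient of variation was 0.0685.

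Alternatives were DESeq2's size factors, the DESeq2 1.42.0 Wald test, no filter, a minimum of 10 counts per library, a block for the replicate number, omission of single libraries, limma 3.58.1 on log2(FPKM + 1) or (FPKM + 0.1) where the mean FPKM reached 1, the former without this minimum, and calls limited to log2-fold changes beyond 1. Replicates differed by more than sampling noise (chi-square per gene 5.11 to 11.5). On simulated counts edgeR found 96 of 99 genes changed by a log2-fold change of 1 and 97 of 97 changed by 2, among 14227, with 5.39% of calls false. In that simulation few genes changed, as many up as down, and all genes had the same dispersion. In the data 39.2% of genes tested were higher and 38.5% lower, so the simulated rates cannot be carried over to these calls.

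Genes named were GAS5, the 8 tested members of each class with the highest mean FPKM, up to 6 with the largest increase and 6 with the largest decrease without overlap, members whose call or sign changed in an alternative, MIR210HG, MIR205HG, MIR17HG, MIR31HG, MIR22HG and SNHG1, and genes of the related lists and of overlapping or neighbouring loci. Other members named were picked with their values in view. The members and lists were chosen with earlier results of these data known. Sequences, neighbours and hosted small RNAs came from reference tables of GRCh38.p14, in which the RefSeq genes matched 76 of 77 members.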

Additional observations from a re-analysis of the deposited data

How the results depend on the processing

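The counts of calls in each class and the class medians kept their direction in every alternative. With calls limited to log2-fold changes beyond 1, 1 snoRNA host was higher and 7 lower, and 11 microRNA hosts were higher and 2 lower. limma on log2(FPKM + 1) and on log2(FPKM + 0.1), which tested 17 microRNA hosts, called 13 of them higher and 3 lower in each case. The median log2-fold change of the microRNA hosts was 1.04 on log2(FPKM + 0.1) and 0.092 on log2(FPKM + 1) with no filter, where all 49 entered. Leaving out 1 library gave 6 to 7 snoRNA hosts higher and 13 to 15 lower, 14 to 17 microRNA hosts higher and 5 to 6 lower, and medians of -0.77 to -0.45 and 0.69 to 0.83. Without normoxia replicate 3, 7 snoRNA hosts were higher and 14 lower, and 16 microRNA hosts were higher and 6 lower. The replicate block gave 6 and 14 snoRNA hosts and 16 and 5 microRNA hosts; the deviations of same-numbered libraries correlated by 0.018, -0.069 and 0.0012, so the numbers were not read as pairs, and MIRLET7BHG was the call lost with the block.

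Of the 42 members called, 36 kept the call in each count-based fit in which they were tested. Calls were lost without hypoxia replicate 3 (SNHG19, MIR3936HG, MIRLET7BHG), hypoxia replicate 2 (MIR31HG, MIR762HG, MIR3936HG, MIRLET7BHG), hypoxia replicate 1 (SNHG9), normoxia replicate 1 (MIR3936HG, MIRLET7BHG), normoxia replicate 2 (MIR31HG, SNHG9, MIR3936HG, MIRLET7BHG) and normoxia replicate 3 (MIR762HG). MIR155HG, MIR4453HG, MIR4458HG, MIR4713HG, SNHG21 and SNHG31, not called, passed in 1 or 2 of these fits. Signs turned for 4 members in some count-based fit, none of them called in any. SNHG7 ranged from -0.073 to 0.099 and turned in 3 such fits, and SNHG14 ranged from -0.0055 to 0.12 and turned in 1. SNHG6 turned to 0.073 with at least 10 counts, 0.0408 in each limma fit on log2(FPKM + 1) and 0.0411 on log2(FPKM + 0.1), and between -0.089 and 0.054 with a library left out. SNHG8 turned to 0.033 with at least 10 counts and to 0.0026 and 0.0027 in the limma fits. The cause was not tested. Median log2-fold changes of shared genes moved by at most 0.077 between settings. Depth left 21 members with too few reads to be tested.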
